A study of Mus musculus with 4 samples.

Results

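The genes described here are 9 markers of oligodendrocytes, the glial cells that wrap axons of the central nervous system in myelin: Mbp, Mobp, Mal, Cldn11, Mag, Mog, Opalin, Cnp and Sox10. They were measured in mouse prefrontal cortex on 4 one-colour Agilent arrays, and they were found by the gene name that the scanner files give to each probe. The genes were chosen from measured values: in these arrays oligodendrocyte markers had been seen to be higher in heterozygous than in wild-type mice on sucrose, so that comparison, the comparison of heterozygous sucrose with wild-type starch, and the interaction are given below as a description and support nothing. Both diet differences share a sucrose array with the choice and are a description as well, and only genotype on starch uses neither of those arrays. The 9 genes are 9 of the 20655 genes measured on all 4 arrays. They had 17 probes, all 17 of them well above background on every array, so no gene was lost to the filter on dim probes.

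The study crossed diet with genotype in B6J mice. The groups were wild-type mice on a starch diet, wild-type mice on a sucrose diet, Glo1 heterozygous mice on starch and Glo1 heterozygous mice on sucrose. Glo1 encodes glyoxalase 1, which detoxifies methylglyoxal. The mice of every group went on their diet at weaning, on postnatal day 21, kept it for about 70 days, and were 3 months old. RNA of 3 mice per group was pooled and 200 ng of it labelled with Cy3, so each group is 1 array, the spread between mice was not measured, and no difference below has a p-value. Because the tissue was taken whole, fewer oligodendrocytes and less RNA per oligodendrocyte cannot be told apart.

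Myelin is a stack of oligodendrocyte membrane in which the cytoplasm has been squeezed out and the outer faces are held close. Myelin basic protein and its relatives join the inner faces, claudin 11 seals the edges of the wraps, and glycoproteins such as Mag and Mog sit where the sheath meets the axon or the outside. The transcription factors Sox10 and Myrf switch on most of these genes when a precursor becomes a myelinating cell. Oligodendrocytes of the prefrontal cortex go on maturing into adult life.

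A probe fixes which transcripts of a gene are read, and 6 of the 9 genes had several probes. The first 30 bases of the 60-base probes of Mog, Mobp and Opalin are shown, because some results for Mog and Opalin turn on which probe is taken. Both Mobp probes put the 4 arrays in the same order. The sign of the Mobp interaction, which was small, and its passing 1.2-fold in wild-type mice on sucrose did depend on the probe. Positions are those of mouse build mm9, and each probe lies on the strand of its gene, minus for Mog and Opalin and plus for Mobp.
Mog A_66_P123582 at chr17:37148277-37148336: gataccgagtagaacttgatttccctccct
Mog A_66_P119497 at chr17:37149021-37149332: cccctggttgccttgatcatctgctacaac
Mog A_55_P2741992 at chr17:37148449-37152016: gtagagaatctccatcggacttttggacag
Mobp A_55_P1958798 at chr9:120085150-120085209: gatttatcctgtctccagttatctggcact
Mobp A_51_P291224 at chr9:120077006-120077065: acccttcaccttcctcaactccaagcgtga
Opalin A_52_P624415 at chr19:41138452-41141030: tgtgaaatttcagaactctatgacaatccc
Opalin A_51_P262563 at chr19:41136557-41136616: cctctggttgtttagaaatagttggatttc
The Mog probes A_66_P119497 and A_55_P2741992 cover spans of 312 and 3568 bases and the Opalin probe A_52_P624415 a span of 2579 bases, so these 60-base probes cross exon junctions. The others listed lie in 1 unbroken stretch each. Whether those stretches are coding or untranslated was not analysed here.

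Promoter windows were taken from RefSeq (assembly GRCm38.p6), 250 bases before and 50 bases after each start, and 7 of the 9 genes matched an entry. The set of windows used held none for Mbp or Sox10. The words searched on both strands were CTGGCAC and CTGGTAC (of the MYRF type), ACAAAG and ACAATG (of the SOX type), CAGCTG (an E-box) and TATAAA. No word is part of another. A word of the MYRF type stood in the windows of Mog, Mag, Cnp and Opalin. A gene can have several windows, 3 in the case of Mag, of which 2 overlap. Counted by window, 5 of the 9 windows of the 7 genes held the word, against 7.10% of all 32851 mouse promoter windows. A word of the SOX type stood in the windows of Mag, Mobp, Cnp and Opalin, again 5 of 9 windows, against 28.6% of all windows. CAGCTG stood in the window of Opalin only among the 7 genes, against 16.3% of all windows, and TATAAA in none of the 7, against 13.6%. The 250 bases before the start are shown for 3 genes with a word of the MYRF type and for Mobp, each in the direction of transcription, with the words of the MYRF and SOX types in capitals.
Mag at chr7:30914923-30915172: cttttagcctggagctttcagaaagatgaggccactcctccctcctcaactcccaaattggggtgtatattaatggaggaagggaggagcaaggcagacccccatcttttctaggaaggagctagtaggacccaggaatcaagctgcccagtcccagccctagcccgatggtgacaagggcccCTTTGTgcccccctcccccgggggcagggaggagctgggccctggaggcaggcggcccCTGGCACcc
Cnp at chr11:100574689-100574938: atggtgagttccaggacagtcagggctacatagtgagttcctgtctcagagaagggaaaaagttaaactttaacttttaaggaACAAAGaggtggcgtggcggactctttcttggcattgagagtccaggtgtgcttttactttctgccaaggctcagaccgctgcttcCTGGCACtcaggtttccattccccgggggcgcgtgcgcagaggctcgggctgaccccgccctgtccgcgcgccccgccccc
Mog at chr17:37023399-37023648: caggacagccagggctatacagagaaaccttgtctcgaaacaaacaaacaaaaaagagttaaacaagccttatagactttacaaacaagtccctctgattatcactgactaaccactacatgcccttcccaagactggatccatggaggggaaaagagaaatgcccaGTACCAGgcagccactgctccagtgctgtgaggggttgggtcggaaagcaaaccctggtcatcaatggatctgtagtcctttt
Mobp at chr9:120149492-120149741: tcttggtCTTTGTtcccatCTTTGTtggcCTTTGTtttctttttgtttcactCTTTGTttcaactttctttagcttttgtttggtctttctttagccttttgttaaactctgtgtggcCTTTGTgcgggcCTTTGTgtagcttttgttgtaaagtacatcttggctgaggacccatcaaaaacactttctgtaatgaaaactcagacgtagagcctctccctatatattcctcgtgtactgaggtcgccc
In Mag the word CTGGCAC began 9 bases before the start, in Cnp 81 bases before it, and in Mog the reverse complement GTACCAG began 83 bases before it. Mobp had no word of the MYRF type and 6 copies of CTTTGT, the reverse complement of ACAAAG. Only 1 of the 32851 windows, that of Mobp itself, held as many words of the SOX type, a count that was singled out after it was seen. A matching word is a run of letters and not a binding site.

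On the 4 arrays the share of non-control spots well above background was 77.6% to 80.2%, and the 75th percentile of the processed signal lay between 1780 and 1929 intensity units. A level below is a signal divided by the 75th percentile of its own array, and a difference is a log2 difference of such levels. Glo1 itself, a check of the labels, had levels of 4.04 in wild-type mice on starch, 5.53 in wild-type mice on sucrose, 2.74 in heterozygous mice on starch and 3.04 in heterozygous mice on sucrose. The error of a spot was read from 78 probes printed 10 times with levels within the range of levels of the 9 genes: the median SD of a spot was 0.05 on the log2 scale, which gives 0.07 for a difference of 2 arrays, and 2 SD of it is 0.14. These repeated probes were mostly bright (median level 11.9), the highest SD of a spot among them was 0.13, and the limit may be too narrow for dimmer genes such as Opalin and Mog. The scanner software gave each probe of the 9 genes an error of 10% to 10.8% of its signal, or 0.20 for a difference. Both errors cover the spot only and neither the mice nor the preparation of the pools.

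Of the structural proteins of compact myelin, Mobp, which encodes the myelin-associated oligodendrocyte basic protein, differed most between arrays. Its brightest probe, A_55_P1958798, read 6.56 in wild-type mice on starch, 5.0 in wild-type mice on sucrose, 7.61 in heterozygous mice on starch and 5.86 in heterozygous mice on sucrose. Both sucrose arrays were below both starch arrays, and on each diet the heterozygous array was the higher one. The highest level was 1.52 times the lowest. The dimmer probe A_51_P291224, designed on another transcript of Mobp, read 1.32, 1.11, 1.53 and 1.27 on the same arrays and put them in the same order.

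Mbp encodes myelin basic protein, which joins the inner faces of the membrane stack. Its brightest probe, A_52_P604195 at chr18:82727929-82727988 (mm9, plus strand), read 6.81 in wild-type mice on starch, 5.31 in wild-type mice on sucrose, 7.27 in heterozygous mice on starch and 6.26 in heterozygous mice on sucrose, the same order as Mobp. The probe A_52_P329451, at chr18:82742266-82744570 with a span of 2305 bases and so across an exon junction, read 2.43, 1.98, 2.34 and 2.03. The probe A_55_P2889696, at chr18:82754032-82754091, read 4.76, 4.31, 3.95 and 4.48. All 3 probes were lowest or next to lowest in wild-type mice on sucrose, but for A_55_P2889696 the lowest array was that of heterozygous mice on starch, which was the highest for A_52_P604195. A_52_P604195 was designed on another transcript of Mbp than A_52_P329451 and A_55_P2889696. The Mbp differences below are those of A_52_P604195 unless probes are said to be averaged.

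Mal encodes a lipid-raft proteolipid of the sheath and Cldn11 the tight-junction protein claudin 11, and each had 1 probe. Mal (chr2:127458976-127459035, minus strand) read 14.8 in wild-type mice on starch, 14.0 in wild-type mice on sucrose, 15.9 in heterozygous mice on starch and 15.4 in heterozygous mice on sucrose. Cldn11 (chr3:31062922-31062981, plus strand) read 5.67, 5.21, 5.68 and 5.38 on the same arrays. Both were highest in heterozygous mice on starch and lowest in wild-type mice on sucrose, with the highest level 1.13 times the lowest for Mal and 1.09 times for Cldn11.

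The surface proteins did not follow that order. Mag, the adhesion molecule of the innermost wrap, varied least of the 9 genes by its brightest probe (A_55_P2062757, chr7:31684202-31684261, minus strand): it read 6.51 in wild-type mice on starch, 6.48 in wild-type mice on sucrose, 6.21 in heterozygous mice on starch and 6.36 in heterozygous mice on sucrose. The highest of these was 1.05 times the lowest, and every difference between arrays was below 0.14. Mog, a glycoprotein of the outermost surface, read 0.667, 0.649, 0.650 and 0.717 with its brightest probe, A_66_P123582, so that 3 arrays lay together and heterozygous sucrose was the highest.

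Opalin encodes a transmembrane glycoprotein of oligodendrocytes and went the other way from Mbp and Mobp with diet. Its brightest probe, A_52_P624415, read 0.253 in wild-type mice on starch, 0.303 in wild-type mice on sucrose, 0.261 in heterozygous mice on starch and 0.346 in heterozygous mice on sucrose. Both sucrose arrays were above both starch arrays, and the highest level was 1.37 times the lowest. The dimmer probe A_51_P262563, which lies apart from it at chr19:41136557-41136616, read 0.0350, 0.0340, 0.0399 and 0.0381 and was slightly lower on sucrose in each genotype. The diet difference of Opalin thus rested on 1 of its 2 probes.

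Cnp encodes cyclic nucleotide phosphodiesterase, an enzyme that keeps cytoplasmic channels open in the sheath. Its brightest probe (A_51_P232901, chr11:100442617-100442676, plus strand) read 4.98 in wild-type mice on starch, 4.73 in wild-type mice on sucrose, 4.61 in heterozygous mice on starch and 4.79 in heterozygous mice on sucrose, and the highest was 1.08 times the lowest. Sox10, the transcription factor of the lineage, had 1 probe (chr15:78985343-78985402, minus strand) that read 2.15, 1.84, 2.30 and 1.95. Sox10 had the order of Mbp, Mobp and Cldn11: heterozygous starch, wild-type starch, heterozygous sucrose, wild-type sucrose. Over all 9 genes, wild-type sucrose was the lowest array for 6 and the highest for 0, and heterozygous starch was the highest for 5. The genes were chosen as high against that wild-type sucrose array. The same was not counted over all genes, so nothing is read from these counts.

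**Figure D1:**
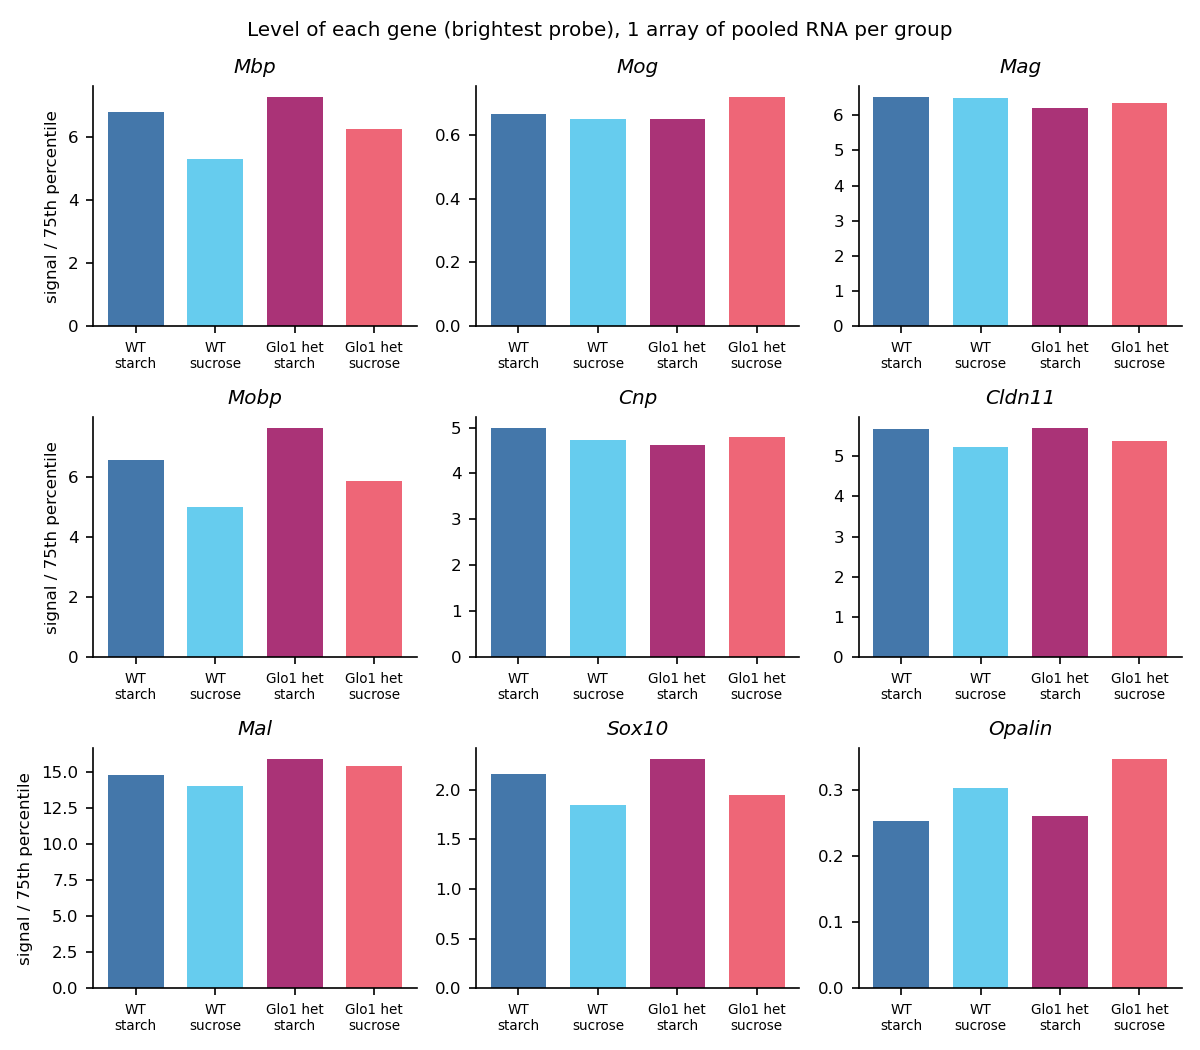
Level of each of the 9 genes by its brightest probe (vertical axes from 0, signal divided by the 75th percentile of the array), with 1 bar for each array of pooled RNA, starch and sucrose for wild-type (WT) and Glo1 heterozygous (het) mice, and no error bars because each group is 1 array. Mobp ran from 5.0 in wild-type mice on sucrose to 7.61 in heterozygous mice on starch, Mag stayed between 6.21 and 6.51, and Opalin was higher on sucrose in both genotypes.

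Among wild-type mice, 8 of the 9 genes were lower on sucrose than on starch and only Opalin was higher, where 49.9% of all 20655 genes were higher. The genes were chosen as high against the same wild-type sucrose array, so nothing is read from that count. The median difference of the 9 was -0.08, against 0.00 over all genes. Mobp was at 0.762 times its starch level (-0.39), Mbp at 0.779 times (-0.36) and Sox10 at 0.855 times (-0.23), while Opalin was at 1.2 times (0.26). These 4 of 9 were past 2 SD of the spot error, as were 51.7% of all genes. Cnp (-0.08), Mal (-0.08), Mog (-0.04) and Mag (-0.01) were within that error, and so was Cldn11 (-0.12). Mbp and Mobp, 2 of 9, were lower by 1.2-fold or more, against 26.3% of all genes past 1.2-fold in either direction, so the share past that size was near the background. None of the 9 was past 2-fold, which 1.48% of all genes were. Cnp was higher (0.09) and Opalin at 0.11 when their probes were averaged, and 14 of the 17 probes were lower. The same arrays differed in other cell types: the 9 excitatory neuron markers had a median difference of 0.24, the striatal markers of 0.99 and the choroid plexus markers of 0.59. The blood markers had one of -1.61, the ependymal of -0.33 and the endothelial of -0.20. The part of these cell types in the values was not tested.

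In Glo1 heterozygous mice the 9 genes pointed both ways. Mobp was at 0.770 times its starch level on sucrose (-0.38), Sox10 at 0.846 times (-0.24) and Mbp at 0.861 times (-0.22), while Opalin was at 1.33 times (0.41) and Mog at 1.1 times (0.14). These 5 of 9 were past 2 SD of the spot error, as were 42.7% of all genes, and Mog was not past the scanner's own error. Opalin was at 0.17, Mog at 0.28 and Mbp at -0.08, within the spot error, when their probes were averaged. Cldn11 (-0.08) and Mal (-0.04) were lower and Cnp (0.05) and Mag (0.03) higher within that error. In all, 4 of 9 genes were higher, against 50.1% of all genes, and the median was -0.04. Mobp and Opalin were past 1.2-fold, against 20.9% of all genes, and none was past 2-fold, against 1.77%. Of the genes within the spot error, Mal was at 0.00 after quantile normalization and Mag at -0.07 when its probes were averaged. On the same arrays the choroid plexus markers had a median difference of 4.51, the ependymal of 1.26, the striatal of -0.99 and the blood markers of -0.81, and their part was not tested.

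Genotype on starch left 1 of the 9 genes past 2 SD of the spot error, where 45.3% of all genes were. Of the 9 genes 6 were higher in heterozygous than in wild-type mice, against 46.0% of all genes, with a median of 0.04. Mobp was at 1.16 times the wild-type level (0.21), the value past that error. Mal (0.10), Sox10 (0.10) and Mbp (0.09) followed, Opalin (0.04) and Cldn11 (0.00) were close to equal, and Mog (-0.04), Mag (-0.07) and Cnp (-0.11) were lower. Cldn11 was at -0.01 after scaling to the median, and when probes were averaged Mbp was at -0.07, Mag at 0.02 and Opalin at 0.12. None of the 9 was past 1.2-fold, which 20.7% of all genes were, and none was past 2-fold, which 0.813% were. The wild-type starch array and the heterozygous starch array had little signal of choroid plexus, with sums over the 8 markers of 0.911 and 0.861. Between these arrays 3 of the 8 markers were past 2-fold. On the same arrays 9 of 10 striatal markers were higher in heterozygous mice (median 0.83) and 8 of 9 microglial markers lower (median -0.12). All 4 blood markers (median -0.43) and all 5 measured ependymal markers (median -0.25) were lower, and the endothelial markers had a median of -0.19. The part of these cell types was not tested.

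On sucrose, the comparison that chose the genes, 8 of 9 were higher in heterozygous than in wild-type mice, where 45.1% of all genes were higher. Mbp was at 1.18 times the wild-type level (0.24), Mobp at 1.17 times (0.23), Opalin at 1.14 times (0.19), Mog at 1.11 times (0.14) and Mal at 1.1 times (0.13). Sox10 (0.08), Cldn11 (0.05) and Cnp (0.02) were smaller, and Mag was at -0.03. None of the 9 was past 1.2-fold, where 18.7% of all genes were, and none was past 2-fold, where 1.71% were. After scaling to the median 7 of 9 were higher, where 34.0% of all genes were, with Cnp at -0.03. Quantile and loess normalization put all 9 higher, with Mag at 0.02 in each and Mbp and Mobp past 1.2-fold, and Mog was past it (0.38) when its probes were averaged, while Mbp was then at 0.11, within the spot error. On the same arrays the choroid plexus markers had a median difference of 4.17, the ependymal of 1.48 and the striatal of -1.26, and their part was not tested. The wild-type sucrose array enters both this comparison and that of diet in wild-type mice, so a low level on it lowers the diet difference and raises the genotype difference at once.

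Between heterozygous mice on sucrose and wild-type mice on starch, which differ in diet and genotype together, 3 of 9 genes were higher, where 47.3% of all genes were. Opalin was at 1.37 times the wild-type starch level (0.46), the only gene past 1.2-fold, where 28.9% of all genes were, and none was past 2-fold, where 2.0% were. Mog (0.11) and Mal (0.06) were higher, and Mobp (-0.16), Sox10 (-0.14), Mbp (-0.12), Cldn11 (-0.08), Cnp (-0.06) and Mag (-0.03) lower. Mag was at 0.01 after loess normalization, and Cnp at 0.03, Mog at 0.26 and Opalin at 0.29 when their probes were averaged. On the same arrays the choroid plexus markers had a median difference of 4.95, the ependymal of 1.01 and the blood markers of -1.27, and their part was not tested.

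The interaction, the diet difference in heterozygous mice less the one in wild-type mice, was above 0 for 8 of 9 genes, where 50.5% of all genes were. All 9 values were within 2 SD of the spot error of an interaction, whose SD was 0.10, while 39.7% of all genes were past it. Mog had the highest value (0.18), followed by Opalin (0.15), Mbp (0.14) and Cnp (0.13). Cldn11, Mag and Mal lay between 0.03 and 0.04, Mobp at 0.01 and Sox10 at -0.01. The signs of Mobp and Mag turned when probes were averaged, that of Mobp also after scaling to the median, and that of Sox10 after loess normalization. None of the 9 reached the log2 of 1.2 in size by its brightest probe, where 28.9% of all genes did, though Mog was at 0.40 when its 3 probes were averaged. None reached a log2 value of 1, where 2.88% did. The interaction had a median of 4.01 for the choroid plexus markers, 1.74 for the ependymal, 0.74 for the blood and -2.02 for the striatal markers, and their part was not tested.

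**Figure D2:**
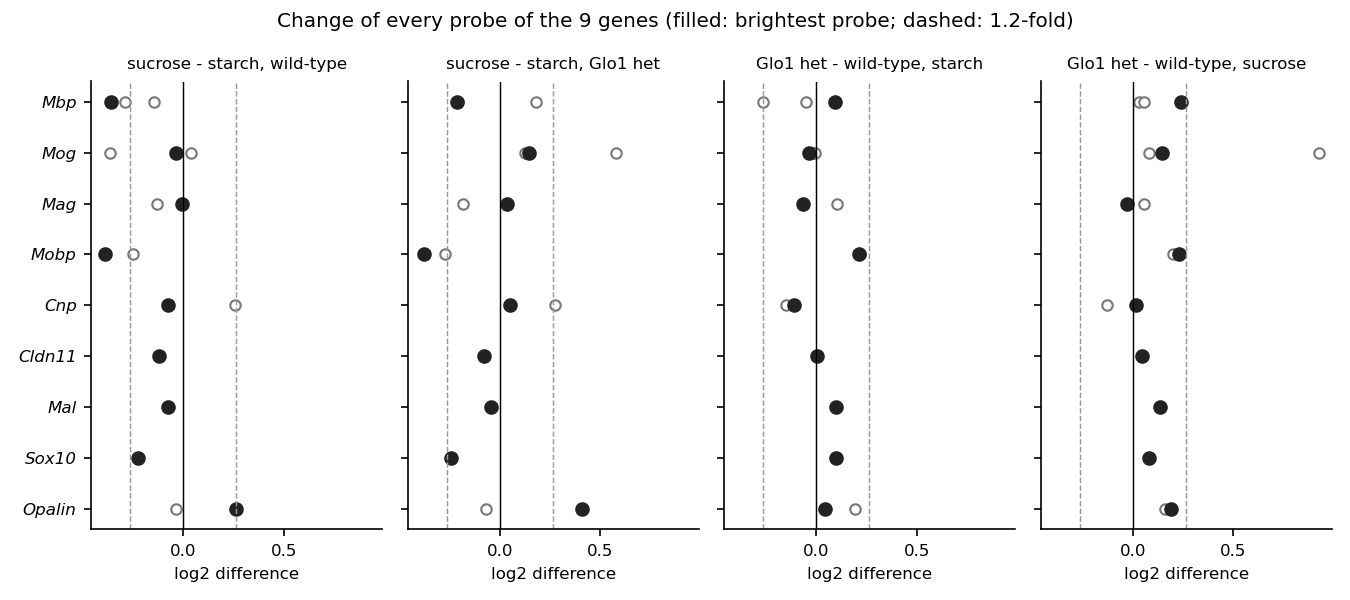
Log2 difference (horizontal axes) of each of the 17 probes of the 9 genes in 4 comparisons, with the brightest probe of a gene filled, other probes open, and dashed lines at 1.2-fold; there are no error bars because each group is 1 array. The brightest probes of Mobp and Mbp lay left of the line in wild-type mice on sucrose, no filled point crossed it between genotypes, and 1 open point of Mog stood at 0.92 between genotypes on sucrose.

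The probes of a gene did not always point one way. Among the 6 genes with several probes, all probes had the same sign for 3 genes (Mag, Mbp and Mobp) in the diet difference of wild-type mice, and for 4 genes (Mbp, Mobp, Mog and Opalin) in the genotype difference on sucrose. The widest gap was in Mog. Its dim probe A_55_P2741992 read 0.0531, 0.0413, 0.0524 and 0.0784, so it was at 1.90 times the wild-type level in heterozygous mice on sucrose, while the others were at 1.11 and 1.06 times. A_55_P2741992 was designed on a transcript of its own and had signals of 78.7 to 151 intensity units, against 1187 to 1383 for A_66_P123582. Mag also had a dimmer probe (A_55_P2647868), which read 0.444, 0.405, 0.477 and 0.420 and was lower on sucrose in both genotypes. The dimmer Cnp probe (A_55_P2805386) read 0.0539, 0.0643, 0.0486 and 0.0588 and was higher on sucrose in both, at 1.19 and 1.21 times the starch level.

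Other genes of the lineage were taken from 8 lists written from general knowledge, of 94 genes in all, and every one of the 94 was measured. For each count of a list the share of all genes that were higher is the background. It was 49.9% with sucrose in wild-type mice, 50.1% in heterozygous mice, 46.0% for genotype on starch and 45.1% for genotype on sucrose. Of 33 other genes of myelin and mature oligodendrocytes, 14 were higher and 19 lower on sucrose in wild-type mice (median -0.02), beside 8 of the 9 lower. The lowest of them was Anln, an actin-bundling protein (2.31, 1.40, 2.17 and 1.75 on wild-type starch, wild-type sucrose, heterozygous starch and heterozygous sucrose, difference -0.73), and the highest was Tubb4a, a tubulin of oligodendrocytes and neurons (0.33). Between genotypes on sucrose 28 of the 33 were higher (median 0.10), and between genotypes on starch 21 of the 33 (median 0.04). Genotype on sucrose is the comparison that chose the 9 genes, so the counts of these lists in it are a description only.

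In that list Enpp2, the secreted lysophospholipase autotaxin, was the only gene past 2-fold. Its brightest probe read 15.7, 15.8, 15.0 and 32.5, high in heterozygous mice on sucrose alone, where it was 1.04 above wild-type on the log2 scale. Its other probes were at 0.32 and 0.00 in the same comparison. Enpp2 is also abundant in choroid plexus epithelium, whose 8 markers summed to 69.9 on that array and to 0.861 to 2.13 on the others; the part of that tissue in the value was not tested. Of 9 genes of myelin lipid synthesis, 7 were higher in heterozygous mice on sucrose (median 0.12), from Elovl7, a fatty acid elongase, at 0.66 to Arsa, the sulfatide-degrading arylsulfatase A, at -0.04.

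Of 10 transcription factors of the lineage, 9 were higher in heterozygous than in wild-type mice on starch (median 0.20). Myrf, which switches on myelin genes, had the highest value there: its brightest probe read 0.328, 0.430, 0.508 and 0.501 (0.63), but its other, dimmer probe was at -0.51. Olig1 was the lowest at -0.14. St18 read 0.354, 0.360, 0.423 and 1.24, so that heterozygous sucrose was 1.79 above wild-type sucrose on the log2 scale, and its other probe was not well above background on any array. The 5 inhibitors of differentiation were all lower in heterozygous mice on sucrose (median -0.07), from Id2 at -0.32 to Id4 at -0.04.

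Of 10 genes of oligodendrocyte precursors, 3 were higher on sucrose in wild-type mice and 6 higher in heterozygous mice on sucrose, with medians of -0.06 and 0.04. Matn4, a matrix protein, was past 2-fold: it read 0.443 in wild-type mice on starch and 0.213, 0.211 and 0.217 on the other arrays, and its dimmer probe was at -0.15 in wild-type mice on sucrose where the brightest was at -1.06. Pdgfra, the growth factor receptor that marks precursors, read 1.61, 1.51, 1.47 and 1.56. Of 8 genes of newly formed oligodendrocytes, 2 were higher on sucrose in wild-type mice and 4 in heterozygous against wild-type mice on sucrose, with medians of -0.03 and 0.03, and Rras2 had the highest value in both (0.19 and 0.26).

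The genes of nodes and axon contacts, which neurons express as well, had medians of the opposite sign to the 9 in 4 of the 6 comparisons. All 10 were higher on sucrose in wild-type mice (median 0.18, with Cntnap2 highest at 0.29 and Cntn2 lowest at 0.02), and all 10 were lower in heterozygous than in wild-type mice on sucrose (median -0.11, from Cntn1 at -0.03 to Kcna2 at -0.22). Their interaction had a median of -0.21, and their difference between heterozygous sucrose and wild-type starch one of 0.02. The signs were those of the 9 in the other two: 7 of 10 were lower on sucrose in heterozygous mice (median -0.04), and 7 of 10 higher between genotypes on starch (median 0.08). The 9 excitatory neuron markers were likewise all higher on sucrose in wild-type mice. Of 9 receptor and ligand genes of myelin inhibition, 4 were higher in each genotype comparison and 4 on sucrose in wild-type mice, with Rtn4r, the Nogo receptor, highest in the latter at 0.41 and Ngfr lowest at -0.48.

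**Figure D3:**
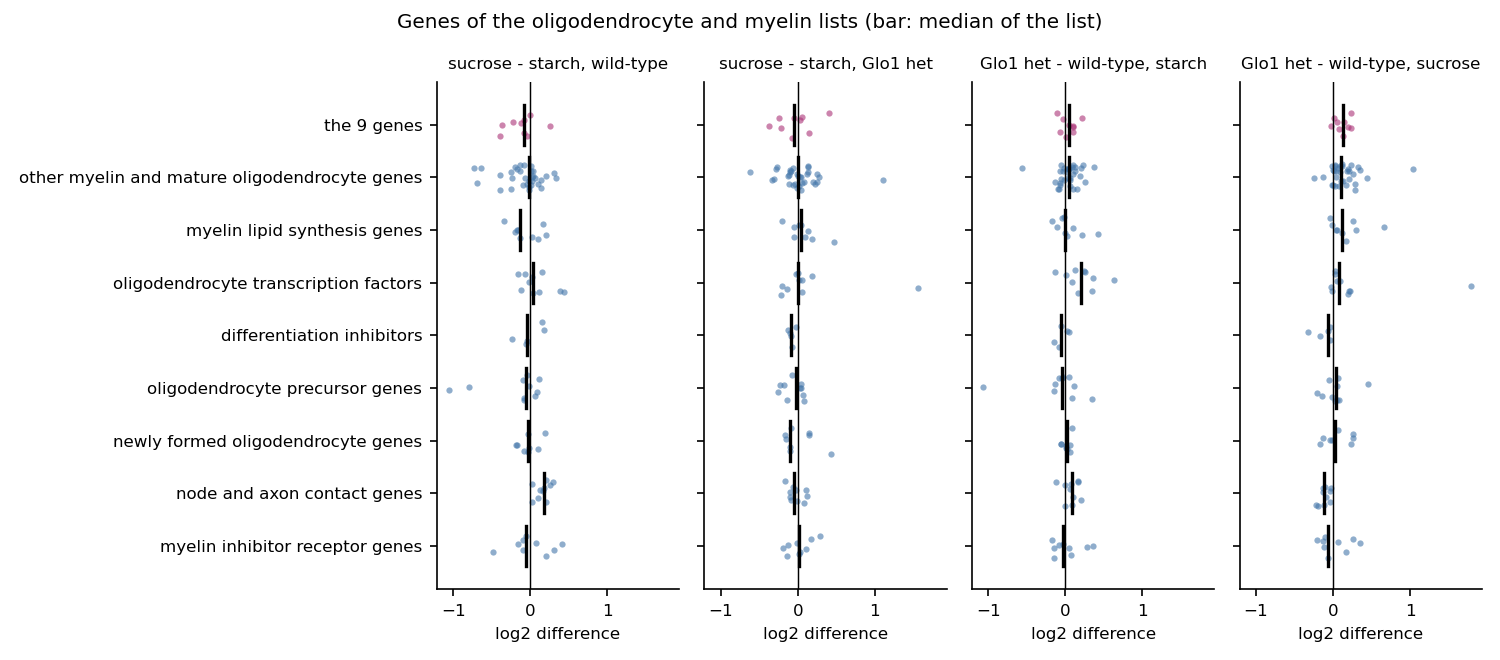
Log2 difference (horizontal axes) of every gene of the 9-gene set and of 8 lists of oligodendrocyte and myelin genes in 4 comparisons, 1 point per gene by its brightest probe and a bar at the median of the list. In wild-type mice on sucrose the 9 genes had a median of -0.08 and the node and axon contact genes of 0.18, and St18 (1.79) and Enpp2 (1.04) stood apart between genotypes on sucrose.

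Markers of other cell types were read on the same arrays. Schwann cells, which make peripheral myelin, had 5 of 6 markers measured, with sums of 0.332 to 0.378, and Pmp2 was not well above background on every array. The 9 astrocyte markers summed to 139 to 162, highest in wild-type mice on starch and lowest in heterozygous mice on sucrose. Gfap, an intermediate filament of astrocytes, read 2.05, 1.29, 2.24 and 2.86, lowest in wild-type mice on sucrose, an order that most of the other astrocyte markers did not share. The 9 genes themselves summed to 48.4, 43.6, 50.5 and 47.1, lowest in wild-type mice on sucrose as well.

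Several lists moved more between arrays than the 9 genes did. The 10 striatal markers summed to 34.2, 56.4, 52.5 and 29.4, the 4 blood markers to 128, 62.4, 107 and 70.0, the endothelial markers to 31.4, 23.1, 28.1 and 23.1, and the excitatory neuron markers to 80.0, 105, 95.4 and 99.0. All 4 blood markers were lower on sucrose in each genotype. Of the 6 endothelial markers 4 were lower in each genotype, but they were not the same genes in both. The choroid plexus and ependymal markers were highest in heterozygous mice on sucrose, at 69.9 and 2.77. Members of these lists were past 2-fold between some pair of arrays: 7 of 10 for striatum, 8 of 8 for choroid plexus, 4 of 5 measured for ependyma and 3 of 4 for blood. The part of these tissues in the values of the 9 genes was not tested. The diet difference in wild-type mice and the genotype difference on starch do not use the heterozygous sucrose array. Of the 8 choroid plexus markers, 4 and 3 were past 2-fold in those comparisons as well.

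**Figure D4:**
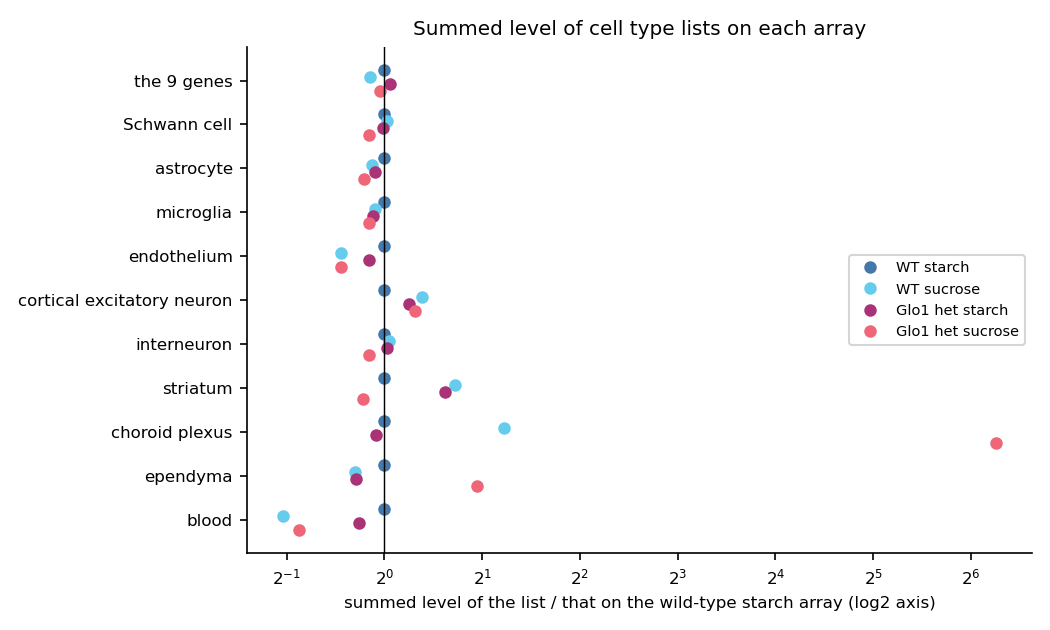
Summed level of the 9 genes and of 10 lists of cell type markers on each array, divided by the sum on the wild-type starch array (horizontal log2 axis), 1 point per array and no error bars because each group is 1 array. The 9 genes (43.6 to 50.5 before division) spread less than the striatal (29.4 to 56.4), blood (62.4 to 128) and choroid plexus (0.861 to 69.9) markers.

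The mean profile of the 9 genes, each centred on its own mean log2 level, was 0.02 in wild-type mice on starch, -0.10 in wild-type mice on sucrose, 0.06 in heterozygous mice on starch and 0.02 in heterozygous mice on sucrose. The SD over the 9 genes was 0.09, 0.13, 0.14 and 0.11 on those arrays, so the genes differed among themselves about as much as the profile did between arrays. Among 10319 other genes with a signal above that of the median gene, the 10 nearest to this profile by root mean square difference over the 4 arrays were Baz1b, Armcx3, Itsn2, Gtf2f2, Gm20939, Ctcf, Chid1, Polr3gl, Sec61b and Stk4. Baz1b was nearest at 0.0082, with levels of 0.696, 0.646, 0.711 and 0.690, and Stk4 was the tenth at 0.013. None of the 10 was in the lists of oligodendrocyte or myelin genes, and a likeness over 4 arrays is a description only.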

How the data were processed

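The intensity values came from the deposited scanner files (Agilent Feature Extraction 11.5.1.1, per the submitters' processing notes), in which the software had, per the file headers, subtracted background, detrended each array and set low signals to a surrogate value. The authors also deposited a series matrix of ratios, each equal on comparison to the processed signal over its array's 75th percentile. Each processed signal was divided by the 75th percentile of the non-control spots on its array and put on the log2 scale. Outlier spots were left out and spots of a probe averaged. Of 56605 probes, 42094 were well above background on all 4 arrays and no spot was saturated. For each of 20655 genes the brightest probe was taken, named as in the files. Probe positions were those of the files.

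The comparisons were 5 differences between arrays and the interaction, with no test. Genes were counted at 1.2-fold and 2-fold. The rule for named genes took all 9 genes, list members past 2-fold, the highest and lowest of a list in the comparison described, and the 10 nearest in profile. It was followed in full for the 9 genes and the profile only. Past 2-fold, cell type markers other than Gfap are given by counts and sums, and the highest and lowest of a list in 1 or 2 comparisons. Pdgfra was named beside it after its values were seen, and the values of 1 other list member are not reported here. The 9 genes and the lists were chosen with earlier results of these data known. The arrays carried 1 group each, so the array and the group cannot be told apart. The calculations of the differences, of the counts and medians over genes and of the nearest profiles were tested on simulated data, and the others were not. Tools were Python 3.11.15, numpy 2.4.6, pandas 2.3.3, R 4.3.3 and limma 3.58.1 (normalization only). There were 7 alternatives: scaling to the median, quantile and cyclic loess normalization, normexp (offset 50) with quantile normalization, the series matrix values, the mean over probes, and no filter on dim probes.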

Additional observations from a re-analysis of the deposited data

Results flagged for a closer look

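For 3 genes the difference pointed opposite ways in the groups compared, on 1 array each, and the contrast between those differences was not tested. Mog was -0.04 with sucrose in wild-type mice and 0.14 in heterozygous mice, and -0.04 between genotypes on starch and 0.14 on sucrose, an interaction of 0.18 on the log2 scale. Cnp was -0.08 and 0.05 with diet in wild-type and heterozygous mice, and -0.11 and 0.02 with genotype on starch and sucrose, an interaction of 0.13. Mag was -0.01 and 0.03 with diet, an interaction of 0.040. All 3 interactions were within 2 SD of the spot error, where 1 SD was 0.10. When the probes of a gene were averaged, Cnp was at 0.09 and 0.16 with diet and at -0.13 and -0.06 with genotype, and Mag at -0.07 in both diet comparisons, so these no longer pointed opposite ways. Mog still did, with an interaction of 0.40.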

How the results depend on the processing

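Of the 54 differences of the 9 genes, 41 kept their sign under all 7 alternatives: 8 of 9 for sucrose in wild-type mice, 7 in heterozygous mice, 6 for genotype on starch, 7 for genotype on sucrose, 7 for heterozygous sucrose against wild-type starch and 6 for the interaction. The median of the 9 genes ranged from -0.12 to -0.07 for sucrose in wild-type mice, from -0.07 to 0.00 in heterozygous mice, from 0.02 to 0.04 for genotype on starch and from 0.09 to 0.15 on sucrose. Averaging the probes of a gene moved 20 of the 54 values by more than 1 SD of the spot error (0.07 for a difference, 0.10 for an interaction), and 2 genes in place of 1, Opalin and Cnp, were then higher with sucrose in wild-type mice. It also took Opalin below 1.2-fold with sucrose in heterozygous mice (0.17) and Mog past it in that comparison (0.28), for genotype on sucrose (0.38) and in the interaction (0.40). Opalin passed 1.2-fold with sucrose in wild-type mice after scaling to the median and with the series matrix values, and Sox10 with sucrose in heterozygous mice after scaling to the median. No paired analysis was possible because each group had 1 array and its replicate number only names it. For the same reason no array could be left out, and arrays limit the precision by their number: the error between mice is unknown.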
